A study of Mus musculus with 4 samples.

Results

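The chemokine ligand genes measured here were the mouse genes whose symbols begin with Ccl or Cxcl and a number, together with Xcl1 and Cx3cl1. Of 22180 genes with a probe set of their own, 34 met this rule. They were compared between 2 arrays of proliferating Tregs and 2 arrays of resting Tregs. All 4 samples held Tregs, which are T-cells that express Foxp3 and hold other lymphocytes in check. They came from NOD mice, which develop autoimmune diabetes spontaneously. Every sample came from a co-culture of 5 days with G-BMDCs, the dendritic cells that grow from bone marrow under GM-CSF, and no sample was cultured without them. Proliferating Tregs were sorted as cells that had diluted a fluorescent dye by dividing, and resting Tregs as cells that had kept it. The labels call the dye CFSE, and the methods call it Cell Trace Violet. The study asked which signaling genes accompany Treg proliferation.

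Values are the deposited log2 expression values, so that a difference of 1 is a 2-fold change. The arrays of a group were close to each other, with a correlation across genes of 0.981 for proliferating and 0.980 for resting Tregs and of 0.797 to 0.819 between the groups. The Treg markers Foxp3, Il2ra, Ctla4 and Ikzf2 were each higher in proliferating Tregs, and Foxp3 read 10.15 and 10.15 there, against 8.30 and 8.26 in resting Tregs. The 6 measured T-cell markers were all higher too, with a mean level of 10.6 and 10.6 in proliferating Tregs, against 8.57 and 8.59 in resting Tregs. All 12 neutrophil markers were lower, at a mean level of 6.21 and 6.15 in proliferating Tregs against 8.79 and 8.92 in resting Tregs. All 8 measured B-cell markers were lower as well, at 5.98 and 5.98 in proliferating Tregs against 8.55 and 8.64 in resting Tregs. Differences in these bulk samples can come from fewer cells of a type or from less RNA per cell, and these cannot be told apart. Differences also depend on how the arrays are scaled: the median over all genes was a log2 fold change of -0.17 in the deposited values, 0.11 after centring on the median, -0.03 after quantile normalization, -1.59 when 9 housekeeping genes were used for centring and -2.14 when Cd3d, Cd3e and Cd3g were. All 9 housekeeping genes were higher in the deposited values, Hprt and Pgk1 by 3.52 and 3.43 and the others by 0.35 to 1.49. The part of Hprt and Pgk1 in the housekeeping centring was not tested. Because changes depend on the scaling, those below are given beside the median of all genes.

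Chemokines are small secreted proteins that steer cells by binding receptors coupled to G proteins, and they are classed as CC, CXC, C or CX3C by the spacing of cysteines near their N-terminus. Activated T-cells release CC chemokines and Xcl1, which draw monocytes, other T-cells and dendritic cells towards them. Dendritic cells and macrophages release Ccl17 and Ccl22, which attract T-cells bearing Ccr4, Tregs included. Epithelial and stromal cells release others that place leukocytes in skin, gut and lymphoid tissue.

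The largest fitted increases were those of Ccl17, Xcl1, Ccl6 and Ccl3, with log2 fold changes of 3.57, 3.55, 3.46 and 3.46. The 250 bases before their start sites are shown to set these 4 genes beside each other, taken from RefSeq on GRCm38.p6, a C57BL/6J genome and not that of NOD. Ccl1 and Cxcl10 follow because each had an increase of at least 1 on the log2 scale and a window that held the NF-κB motif searched for. Cxcl2, whose window held that motif and whose level did not pass the test, is shown beside them. Each is written 5′ to 3′ on the strand of its gene, and capitals mark the NF-κB motif (GGGA and TTCC with 2 bases of any kind between them), the STAT motif TTCNNNGAA and the AP-1 motif TGANTCA, searched on both strands. The windows lie at chr8:94810203-94810452 on the plus strand for Ccl17, and on the minus strand at chr1:164935523-164935772 for Xcl1, chr11:83593088-83593337 for Ccl6 and chr11:83649379-83649628 for Ccl3. Those of Ccl1 and Cxcl10 lie on the minus strand at chr11:82179813-82180062 and chr5:92348890-92349139, and that of Cxcl2 on the plus strand at chr5:90903649-90903898.
Ccl17: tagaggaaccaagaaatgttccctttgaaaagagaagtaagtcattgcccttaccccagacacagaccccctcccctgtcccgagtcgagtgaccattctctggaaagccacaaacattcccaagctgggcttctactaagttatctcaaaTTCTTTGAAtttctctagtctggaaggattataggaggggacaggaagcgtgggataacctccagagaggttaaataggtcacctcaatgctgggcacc
Xcl1: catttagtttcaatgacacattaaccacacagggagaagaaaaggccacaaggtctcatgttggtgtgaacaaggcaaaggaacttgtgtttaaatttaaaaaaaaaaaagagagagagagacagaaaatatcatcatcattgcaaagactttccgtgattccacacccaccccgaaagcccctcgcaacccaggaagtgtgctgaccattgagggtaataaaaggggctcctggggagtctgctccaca
Ccl6: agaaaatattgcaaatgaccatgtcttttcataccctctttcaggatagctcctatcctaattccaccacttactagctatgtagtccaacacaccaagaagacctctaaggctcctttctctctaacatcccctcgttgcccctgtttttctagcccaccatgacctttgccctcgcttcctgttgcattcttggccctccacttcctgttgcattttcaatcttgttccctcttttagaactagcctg
Ccl3: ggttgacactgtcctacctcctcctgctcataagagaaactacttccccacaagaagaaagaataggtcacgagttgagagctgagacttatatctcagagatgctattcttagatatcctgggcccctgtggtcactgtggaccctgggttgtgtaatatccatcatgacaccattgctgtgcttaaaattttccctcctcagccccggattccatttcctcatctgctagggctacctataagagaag
Ccl1: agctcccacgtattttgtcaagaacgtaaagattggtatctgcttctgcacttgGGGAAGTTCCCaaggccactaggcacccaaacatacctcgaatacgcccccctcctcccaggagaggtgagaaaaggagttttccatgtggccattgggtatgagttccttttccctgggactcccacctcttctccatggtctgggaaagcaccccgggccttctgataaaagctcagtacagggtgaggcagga
Cxcl10: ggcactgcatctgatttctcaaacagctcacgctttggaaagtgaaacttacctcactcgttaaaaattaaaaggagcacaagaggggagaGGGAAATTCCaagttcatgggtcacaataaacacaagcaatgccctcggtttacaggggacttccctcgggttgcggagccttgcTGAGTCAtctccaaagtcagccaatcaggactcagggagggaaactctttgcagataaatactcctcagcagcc
Cxcl2: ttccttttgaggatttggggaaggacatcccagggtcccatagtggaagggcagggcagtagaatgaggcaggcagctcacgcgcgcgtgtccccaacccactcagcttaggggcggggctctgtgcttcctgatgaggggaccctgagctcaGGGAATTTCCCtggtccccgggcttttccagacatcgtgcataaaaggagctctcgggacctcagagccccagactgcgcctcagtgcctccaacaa

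None of the 4 genes with the largest fitted increases had an NF-κB or AP-1 match in its window. Ccl17 had a STAT match that began 99 bases before the start site. Ccl1 had overlapping NF-κB matches on either strand that spanned 196 to 186 bases before the start, and Cxcl10 had NF-κB and AP-1 matches that began 159 and 74 bases before it. Cxcl2 likewise had overlapping NF-κB matches on either strand, 97 to 87 bases before the start. Of 32851 mouse windows of this length, 1.21% held the NF-κB motif, 7.02% the STAT motif and 6.75% the AP-1 motif. Because Ccl1, Cxcl10 and Cxcl2 were chosen for holding the NF-κB motif, its share cannot say whether their matches are unusual. How many of the other chemokine windows held it is not given here. The short NFAT core GGAAA, not marked by capitals, was found in 55.6% of windows and in all of those shown except Ccl6. In Cxcl10 and Cxcl2 an NFAT core overlapped the NF-κB match. A match is a run of letters and not a measured site of binding, and windows were available for 23 of the 34 genes, too few for a statement about the whole set.

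Of the 34 chemokine ligand genes, 16 (47.1%) were higher in proliferating Tregs and 10 (29.4%) lower, while 8 missed the threshold (limma, Benjamini-Hochberg adjusted p under 0.05 over all genes). Passing the test was common on these arrays: of all 22180 genes 60.1% did, 25.6% as higher and 34.5% as lower. At a log2 fold change of at least 1, 12 of the 34 (35.3%) were higher, against 12.6% of all genes, and 2 (5.88%) were lower, against 4.42%. The median log2 fold change of the 34 was 0.32, against -0.17 for all genes. The 2 proliferating arrays lay above the 2 resting arrays for 18 of the 34 genes (52.9%, against 33.0% of all genes) and below them for 12 (35.3%, against 48.1%). The mean over the 4 arrays stood above 6.32, the 95th percentile of 320 vomeronasal and taste receptor genes taken as a limit of dim genes, for 27 of the 34. Of these 27, 14 were higher and 8 lower. With dim genes left out of the fit, 45.8% of the 11219 genes kept were higher, 5143 in all, and 3558 were lower. The shares of the 27 called higher and lower were thus near those of the genes kept. The median log2 fold change of the genes kept was 0.19, against 0.40 for the 27.

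**Figure D1:**
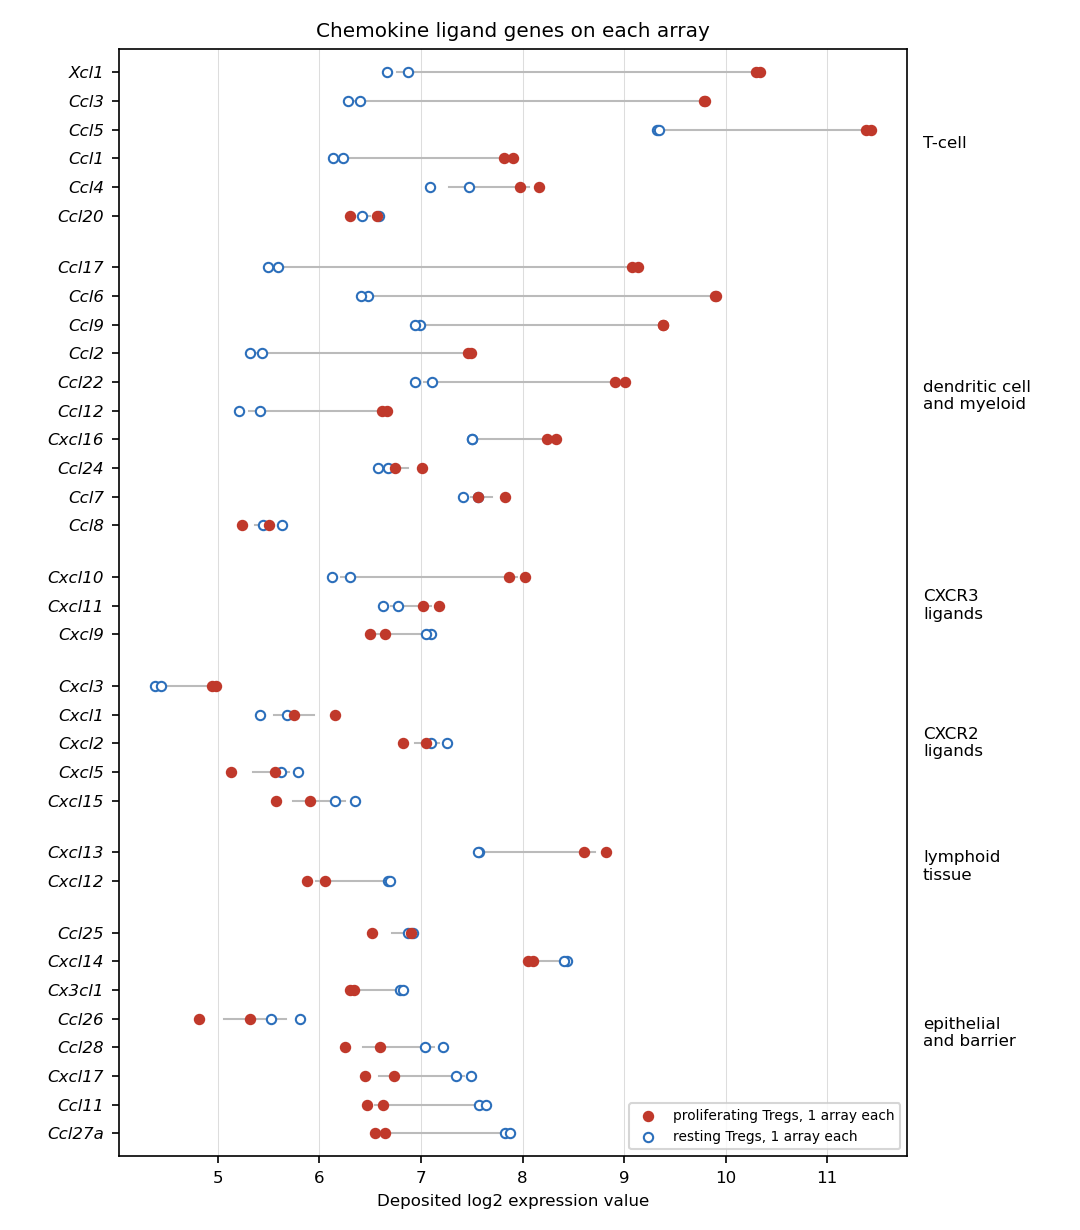
Deposited log2 value (horizontal axis) of each of the 34 chemokine ligand genes (rows, grouped by list) on the 2 arrays of proliferating Tregs (filled points) and the 2 arrays of resting Tregs (open points), with a line between the group means. The arrays of the groups stand well apart for Xcl1, Ccl3, Ccl17 and Ccl6, near each other for most other genes, and overlap for 4 genes.

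Over all genes, the count of lower genes fell by more than that of higher genes when either resting array was left out. Among the chemokine ligand genes, too, the count of lower genes was less stable than that of higher genes. Without resting replicate 1 it was 4 and without resting replicate 2 it was 5, while the count of higher genes was 13 and 15. Scaling moved both counts: 19 were higher and 4 lower after centring on the median, 15 and 7 after quantile normalization, 8 and 22 when housekeeping genes were the centre, and 5 and 24 when the Cd3 genes were. Over all genes the higher share of those called was 42.7% in the deposited values, 69.7% after centring on the median, 54.4% after quantile normalization, 4.49% with housekeeping genes and 1.54% with the Cd3 genes. Ccl17, Xcl1, Ccl6, Ccl3 and Ccl9 were higher under all 5 scalings, and Ccl27a, Ccl11, Cxcl17 and Cxcl12 were lower under all 5.

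**Figure D2:**
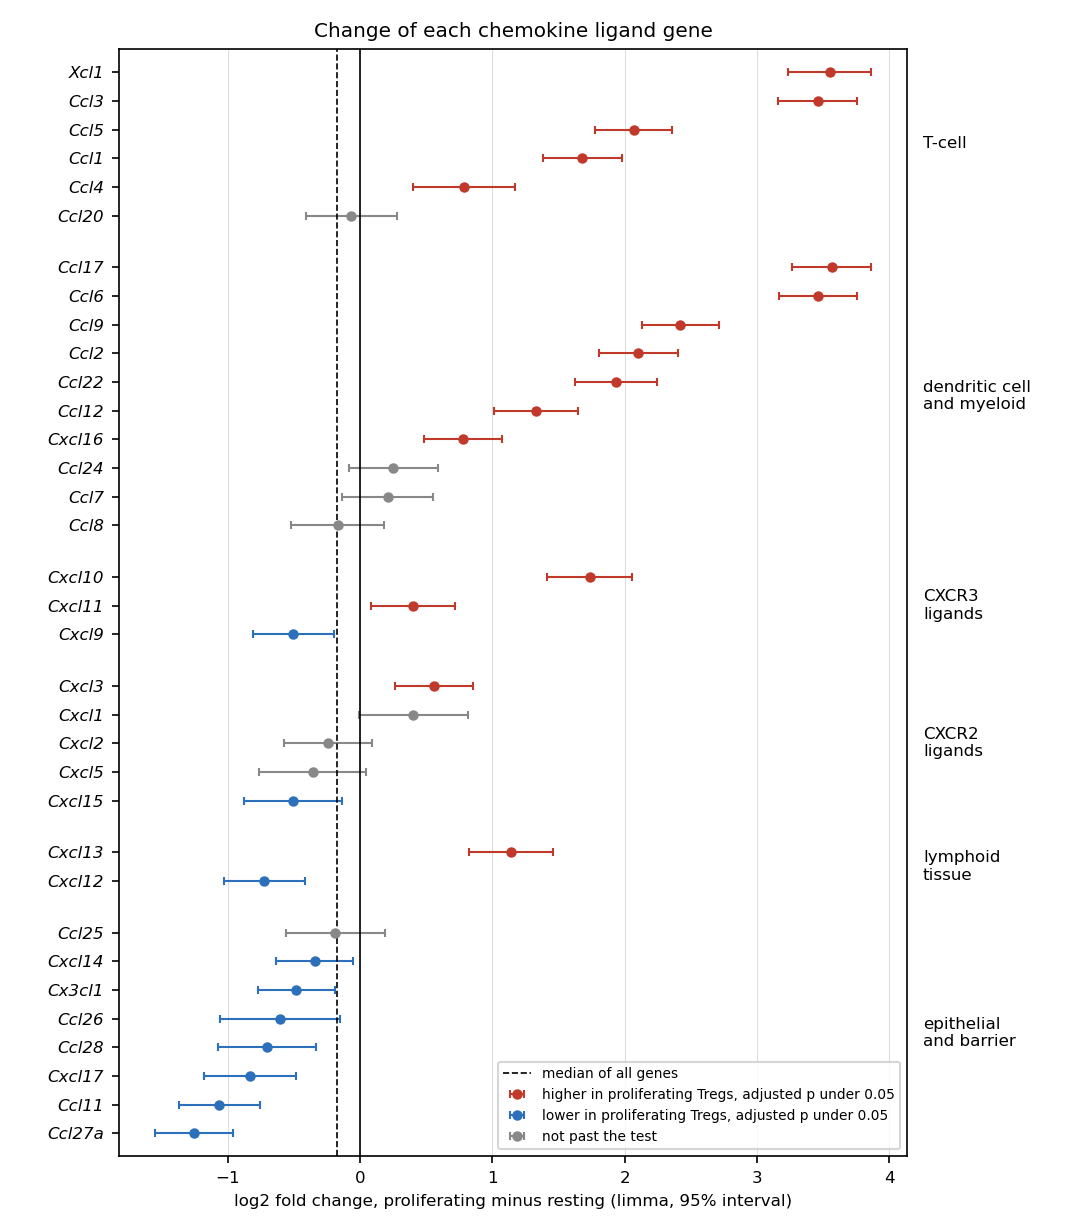
Log2 fold change of each chemokine ligand gene in proliferating minus resting Tregs (horizontal axis, points) with its 95% interval from limma (bars, n = 2 arrays per group), coloured by whether it passed the test. The dashed line is the median of all genes, -0.17; with centring on the Cd3 genes 5 genes would be called higher and 24 lower.

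The T-cell chemokines were Ccl1, Ccl3, Ccl4, Ccl5, Ccl20 and Xcl1. Of these 6, proliferating Tregs had 5 higher and 0 lower, while Ccl20 missed the threshold. Of all genes, 25.6% were higher and 34.5% lower. Among genes above the limit of dim genes, where these 6 lay, 45.8% were higher. The median log2 fold change of the 6 was 1.87, against -0.17 for all genes. This median lay 2.05 above that of all genes in the deposited values and under each centring, and 1.60 above it after quantile normalization. The T-cell markers had a median log2 fold change of 1.86 in the same arrays, and their part in the result was not tested.

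Xcl1, the C chemokine that draws cross-presenting dendritic cells, read 10.34 and 10.30 in proliferating Tregs, against 6.87 and 6.67 in resting Tregs. The log2 fold change was 3.55 ± 0.13 (SE, n = 2 arrays per group, limma adjusted p = 7.67e-06). Ccl3, also called MIP-1α, read 9.79 and 9.80 in proliferating Tregs, against 6.39 and 6.28 in resting Tregs, a log2 fold change of 3.46 ± 0.13 (adjusted p = 7.67e-06). For both genes the gap between the groups was many times the gap between arrays of a group, and both remained higher after centring on the Cd3 genes, by 1.58 for Xcl1 and 1.49 for Ccl3.

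Ccl5, also called RANTES, attracts T-cells, monocytes and eosinophils, and it read 11.44 and 11.38 in proliferating Tregs, against 9.33 and 9.35 in resting Tregs. Its log2 fold change was 2.07 ± 0.13 (adjusted p = 2.07e-05), a 4.19-fold difference, and after centring on the Cd3 genes it no longer passed the test (log2 fold change 0.10, adjusted p = 0.521). Ccl1, a ligand of Ccr8, read 7.91 and 7.81 in proliferating Tregs, against 6.23 and 6.13 in resting Tregs. Both resting arrays lay below the limit of dim genes, over which the proliferating mean was at least 2.91-fold higher. The log2 fold change of 1.68 ± 0.13 (adjusted p = 4.86e-05) turned to -0.29 with the Cd3 genes and did not pass the test with housekeeping genes (adjusted p = 0.0932).

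Ccl4, also called MIP-1β, is released with Ccl3 by many activated leukocytes. It read 7.97 and 8.16 in proliferating Tregs, against 7.09 and 7.47 in resting Tregs. Its 1.72-fold increase (adjusted p = 0.00518) was smaller than that of Ccl3. The call was lost without resting replicate 1 (adjusted p = 0.0537) and after quantile normalization (adjusted p = 0.0719), and the fold change turned to -0.64 with housekeeping genes. Ccl20, the ligand of Ccr6, read 6.56 and 6.30 in proliferating Tregs, against 6.42 and 6.58 in resting Tregs. The arrays of the groups overlapped, and the 95% interval of its log2 fold change ran from -0.41 to 0.28.

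The dendritic cell and myeloid chemokines were Ccl2, Ccl6, Ccl7, Ccl8, Ccl9, Ccl12, Ccl17, Ccl22, Ccl24 and Cxcl16. Of these 10, proliferating Tregs had 7 higher and 0 lower, while Ccl7, Ccl8 and Ccl24 missed the threshold. The shares of all genes were 25.6% higher and 34.5% lower. The median log2 fold change was 1.63, against 1.87 for the T-cell chemokines and -0.17 for all genes. It lay 1.80 above the median of all genes in the deposited values and under each centring, and 1.59 above it after quantile normalization. Centring leaves this distance as it is but moves the counts. With housekeeping genes, 3 of the 6 T-cell chemokines were higher and 2 lower, and 5 of the 10 dendritic cell and myeloid chemokines were higher and 4 lower. With the Cd3 genes, 2 of the 6 were higher and 2 lower, and 3 of the 10 were higher and 5 lower. Of all 22180 genes, 922 (4.16%) were higher and 19605 lower with housekeeping genes. With the Cd3 genes, 329 of all genes (1.48%) were higher and 21009 lower. The difference between the medians of the lists was not tested.

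Markers of dendritic cells and macrophages did not move one way. Of 21 measured, 10 were higher and 6 lower, and 5 missed the threshold, with a mean level of 7.75 and 7.69 in proliferating Tregs against 7.39 and 7.46 in resting Tregs. The 10 higher were Clec4n, Clec7a, Cd86, Cd68, Lyz2, Adgre1, Cd14, Ccr7, Csf1r and Csf2rb, by log2 fold changes of 0.38 to 4.20. The 6 lower were H2-Ab1, H2-Eb1, H2-Aa, Ciita, Flt3 and Zbtb46, with log2 fold changes of -2.56 to -0.63. Flt3 lay below the limit of dim genes, with a mean over the arrays of 5.77, and Zbtb46 near it, at 6.55. Clec4n, the lectin Dectin-2, read 10.24 and 10.10 in proliferating Tregs, against 6.06 and 5.88 in resting Tregs. H2-Ab1, a class II antigen presentation gene that B-cells share, read 6.80 and 6.74 in proliferating Tregs, against 9.40 and 9.25 in resting Tregs. Itgax, which encodes CD11c, read 6.23 and 5.95 in proliferating Tregs, against 6.14 and 6.47 in resting Tregs, all near the limit of dim genes. The part of dendritic cells carried through the sort in the chemokine values was not tested.

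Ccl17, also called TARC, read 9.07 and 9.14 in proliferating Tregs, against 5.59 and 5.49 in resting Tregs. The fitted log2 fold change was 3.57 ± 0.13 (adjusted p = 7.67e-06). Both resting arrays lay below the limit of dim genes, and the mean of the proliferating arrays was at least 6.90-fold higher when that limit stood for the resting level. Ccl22, also called MDC, the other ligand of Ccr4, read 9.01 and 8.92 in proliferating Tregs, against 7.11 and 6.94 in resting Tregs. Its log2 fold change was 1.93 ± 0.13 (adjusted p = 3.19e-05), and it was -0.04 with the Cd3 genes, where Ccl17 was still 1.60.

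Ccl6 and Ccl9 are CC chemokines of mouse myeloid cells that bind Ccr1. Ccl6 read 9.90 and 9.90 in proliferating Tregs, against 6.47 and 6.41 in resting Tregs, a log2 fold change of 3.46 ± 0.13 (adjusted p = 7.67e-06). Ccl9 read 9.38 and 9.39 in proliferating Tregs, against 6.99 and 6.94 in resting Tregs, a log2 fold change of 2.42 ± 0.12 (adjusted p = 1.36e-05). For either gene the arrays of a group lay close together, and both genes were higher under all 5 scalings.

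The monocyte chemoattractants of the Ccr2 group did not move alike. Ccl2, also called MCP-1, read 7.49 and 7.46 in proliferating Tregs, against 5.44 and 5.32 in resting Tregs (log2 fold change 2.10 ± 0.13, adjusted p = 2.11e-05), where both resting arrays lay below the limit of dim genes and the difference from that limit was at least 2.23-fold. Ccl12, its close relative in the mouse, read 6.67 and 6.61 in proliferating Tregs, against 5.42 and 5.20 in resting Tregs (1.33 ± 0.14, adjusted p = 1.85e-04), and its resting arrays were below the limit of dim genes, over which the increase was at least 1.25-fold. Ccl7, also called MCP-3, read 7.83 and 7.56 in proliferating Tregs, against 7.56 and 7.41 in resting Tregs, and its groups overlapped narrowly (95% interval -0.14 to 0.55). The fold change of Ccl12 was -0.09 with housekeeping genes, and Ccl2 did not pass the test with the Cd3 genes (log2 fold change 0.13, adjusted p = 0.414).

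Cxcl16, a membrane-bound chemokine whose receptor is Cxcr6, read 8.33 and 8.24 in proliferating Tregs, against 7.51 and 7.50 in resting Tregs. Its 1.72-fold increase (adjusted p = 0.00163) did not pass the test after quantile normalization (adjusted p = 0.0529) and turned to -0.64 with housekeeping genes. Ccl24, an eotaxin, read 6.74 and 7.01 in proliferating Tregs, against 6.68 and 6.57 in resting Tregs (95% interval -0.09 to 0.59). Ccl8, also called MCP-2, read 5.51 and 5.23 in proliferating Tregs, against 5.44 and 5.64 in resting Tregs (95% interval -0.52 to 0.18). For the 3 genes of this list that missed the threshold, the intervals leave room for increases of up to 0.59.

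**Figure D3:**
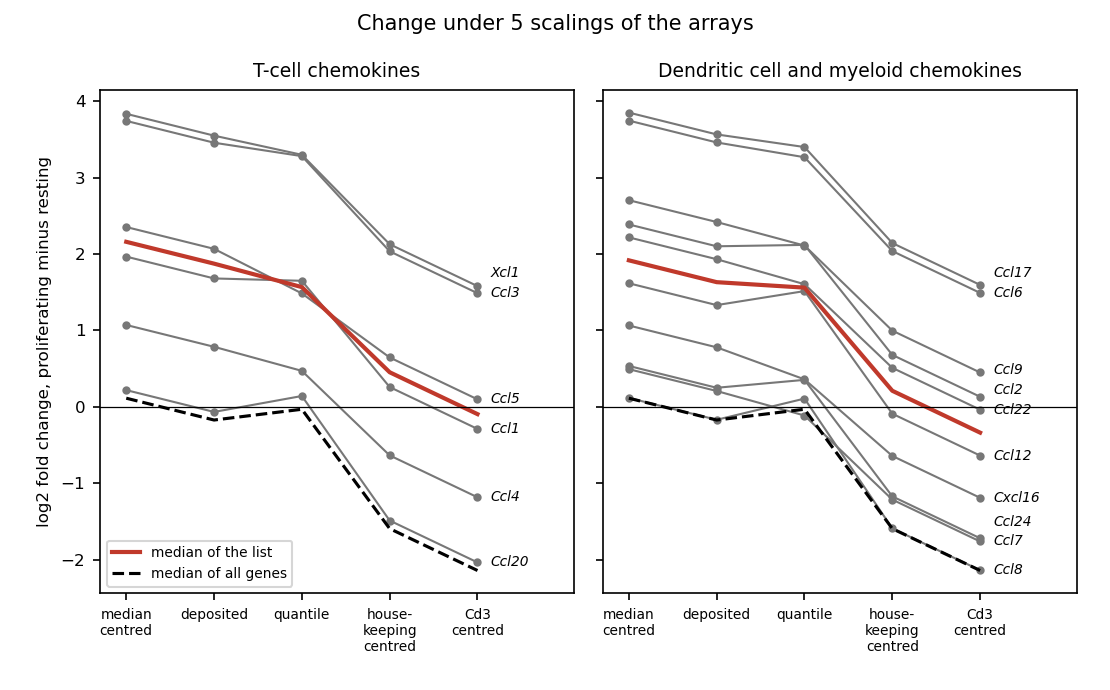
Log2 fold change in proliferating minus resting Tregs (vertical axis) of each T-cell chemokine (left) and each dendritic cell and myeloid chemokine (right) under 5 scalings of the arrays (horizontal axis). The red line is the median of the list and the dashed line that of all genes; the list medians of 1.87 and 1.63 in the deposited values were -0.10 and -0.34 with the Cd3 genes, where the median of all genes was -2.14.

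The interferon-induced ligands of Cxcr3, which bring activated T-cells into inflamed tissue, differed among themselves. Cxcl10, also called IP-10, read 7.87 and 8.02 in proliferating Tregs, against 6.30 and 6.12 in resting Tregs. Its log2 fold change was 1.74 ± 0.14 (adjusted p = 5.78e-05), with both resting arrays below the limit of dim genes and an increase of at least 3.09-fold over that limit. It did not pass the test with housekeeping genes (adjusted p = 0.0581) and it was -0.23 with the Cd3 genes. Cxcl11 was higher by 0.40 (adjusted p = 0.0369), a call lost when resting replicate 1, resting replicate 2 or proliferating replicate 2 was left out, and it turned to -1.03 with housekeeping genes. Cxcl9 was lower, at 6.64 and 6.50 in proliferating Tregs against 7.10 and 7.05 in resting Tregs (log2 fold change -0.50, adjusted p = 0.0123), a call lost without either resting replicate and after centring on the median (-0.22, adjusted p = 0.198).

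The list of Cxcr2 ligands, CXC chemokines that attract neutrophils, held Cxcl1, Cxcl2, Cxcl3, Cxcl5 and Cxcl15. Unlike the others, Cxcl15 was not paired with Cxcr2 or another receptor here. Of these 5, Cxcl3 was higher, by 0.56, Cxcl15 was lower, by a log2 fold change of -0.51, and the other genes did not pass the test, with log2 fold changes of -0.36 to 0.40. The call of Cxcl3 was lost without resting replicate 1, and that of Cxcl15 without either resting replicate or proliferating replicate 1, after quantile normalization (-0.22, adjusted p = 0.307) and after centring on the median (-0.22, adjusted p = 0.290). The fold change of Cxcl3 turned to -0.86 with housekeeping genes. The 5 genes had a median of -0.24, near the -0.17 of all genes. Only Cxcl2 of the 5 lay above the limit of dim genes. Neutrophil markers were lower in proliferating Tregs, with a median log2 fold change of -2.29 and with S100a9 at 5.79 and 5.81 in proliferating Tregs, against 11.02 and 11.26 in resting Tregs, and their part in these values was not tested.

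Cxcl13 and Cxcl12 place lymphocytes in lymphoid tissue and bone marrow. Cxcl13, the B-cell attractant, read 8.82 and 8.60 in proliferating Tregs, against 7.58 and 7.56 in resting Tregs. Its log2 fold change was 1.14 ± 0.14 (adjusted p = 3.84e-04), and it turned to -0.28 with housekeeping genes and -0.83 with the Cd3 genes. Cxcl12, also called SDF-1, was lower, at 5.88 and 6.05 in proliferating Tregs against 6.68 and 6.70 in resting Tregs (log2 fold change -0.72, adjusted p = 0.00275). Both proliferating arrays lay below the limit of dim genes, 6.32, and the mean over the 4 arrays, 6.33, was barely above it. The probe sets for Ccl19 and the Ccl21 genes each carried several gene names, and these genes were not analysed here.

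The chemokines of epithelia and other barriers were Ccl11, Ccl25, Ccl26, Ccl27a, Ccl28, Cx3cl1, Cxcl14 and Cxcl17. Of these 8, proliferating Tregs had 0 higher and 7 lower, while Ccl25, the thymus and gut chemokine, missed the threshold. Their median log2 fold change was -0.66, against -0.17 for all genes, 1.63 for the dendritic cell and myeloid chemokines and 1.87 for the T-cell chemokines. The number called lower fell to 3 after centring on the median and 5 after quantile normalization. Of all genes, 34.5% were lower in the deposited values. Apart from Cxcl14, the genes of this list had proliferating means of 5.06 to 6.71, near or below the limit of dim genes of 6.32. Their resting means were 5.67 to 7.85.

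Ccl27a, also called CTACK, the skin chemokine of keratinocytes, read 6.65 and 6.55 in proliferating Tregs, against 7.83 and 7.88 in resting Tregs. Its log2 fold change was -1.26 ± 0.13 (adjusted p = 1.75e-04), and a second probe set of the gene gave -1.02 (adjusted p = 0.00217). Mouse Ccl27a has a near-identical copy, Ccl27b, whose probe sets carried several names, so the assignment of this signal to Ccl27a is uncertain. Ccl11, also called eotaxin-1, read 6.62 and 6.46 in proliferating Tregs, against 7.57 and 7.64 in resting Tregs, a log2 fold change of -1.06 ± 0.13 (adjusted p = 4.69e-04). Ccl27a was 2.39-fold and Ccl11 2.09-fold higher in resting Tregs. The other 5 called lower, Cxcl14, Cx3cl1, Ccl26, Ccl28 and Cxcl17, had log2 fold changes of -0.83 to -0.34. Of these, Ccl28, Cx3cl1, Ccl26 and Cxcl14 lost the call without resting replicate 1, and Cx3cl1, Ccl26 and Cxcl14 without resting replicate 2. Without proliferating replicate 2 the calls of Ccl26 and Cxcl14 were lost, and without proliferating replicate 1 that of Cxcl14.

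Pf4 and Ppbp are CXC chemokines of platelets that the symbol rule leaves out. Pf4 read 10.17 and 10.15 in proliferating Tregs, against 6.15 and 5.96 in resting Tregs, a fitted log2 fold change of 4.11 (adjusted p = 7.67e-06). Both resting arrays lay below the limit of dim genes, and against that limit Pf4 was at least 14.3-fold higher. Ppbp read 5.82 and 6.03 in proliferating Tregs, against 6.35 and 6.43 in resting Tregs (log2 fold change -0.46, adjusted p = 0.0209), and lost the call without resting replicate 1, resting replicate 2 or proliferating replicate 1. Of 6 measured platelet markers, these genes included, 1 was higher, 4 were lower and 1 missed the threshold.

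The genes of chemokine receptors were read from the same fit. Of 23 measured, proliferating Tregs had 6 higher and 12 lower, while 5 missed the threshold, with a median log2 fold change of -0.38. Of all genes, 25.6% were higher and 34.5% lower, with a median of -0.17, so that the share of receptor genes called higher was near that of all genes. Ccr8 read 8.41 and 8.21 in proliferating Tregs, against 6.43 and 6.57 in resting Tregs (1.81 ± 0.14, adjusted p = 4.89e-05), beside an increase of 1.68 for its ligand Ccl1. Ccl8, also paired with Ccr8 here, did not pass the test (log2 fold change -0.17, limma adjusted p = 0.355). Ccr4 read 7.37 and 7.55 in proliferating Tregs, against 5.88 and 6.19 in resting Tregs (1.42 ± 0.15, adjusted p = 2.40e-04), beside 3.57 for Ccl17 and 1.93 for Ccl22. Both receptors are known on effector-like Tregs.

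Ccr1, the receptor of Ccl3, Ccl5, Ccl6 and Ccl9, read 7.59 and 8.01 in proliferating Tregs, against 6.37 and 6.44 in resting Tregs (1.39 ± 0.17, adjusted p = 3.82e-04). Cxcr3 read 8.34 and 8.65 in proliferating Tregs, against 7.27 and 7.44 in resting Tregs (1.14 ± 0.15, adjusted p = 6.97e-04), while its ligands Cxcl10 and Cxcl11 were higher and Cxcl9 lower. With the Cd3 genes, Ccr8, Ccr4, Ccr1 and Cxcr3 were at -0.16, -0.54, -0.58 and -0.83.

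The receptors of several other ligands were lower or missed the threshold. Xcr1, the receptor of Xcl1 on cross-presenting dendritic cells, was lower, at 6.45 and 6.39 in proliferating Tregs against 7.13 and 6.98 in resting Tregs (log2 fold change -0.64, adjusted p = 0.00471). That call was lost without resting replicate 1 (adjusted p = 0.0503) and after centring on the median (adjusted p = 0.0566). Cxcr5, the receptor of Cxcl13 on B-cells and follicular T-cells, was lower by a log2 fold change of -1.69 ± 0.14 (adjusted p = 6.94e-05), at 7.00 and 7.18 in proliferating Tregs against 8.88 and 8.69 in resting Tregs, as were the 8 B-cell markers, whose part was not tested. Cxcr2 was lower by -1.21 and Cxcr4, the receptor of Cxcl12, by -1.19. Ccr10, the receptor of Ccl27a and Ccl28, was lower by -0.61 (adjusted p = 0.0128), a call lost without either resting replicate, after quantile normalization and after centring on the median. Ccr2 (0.35, adjusted p = 0.0510) and Ccr3 (0.10, adjusted p = 0.540) did not pass the test.

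**Figure D4:**
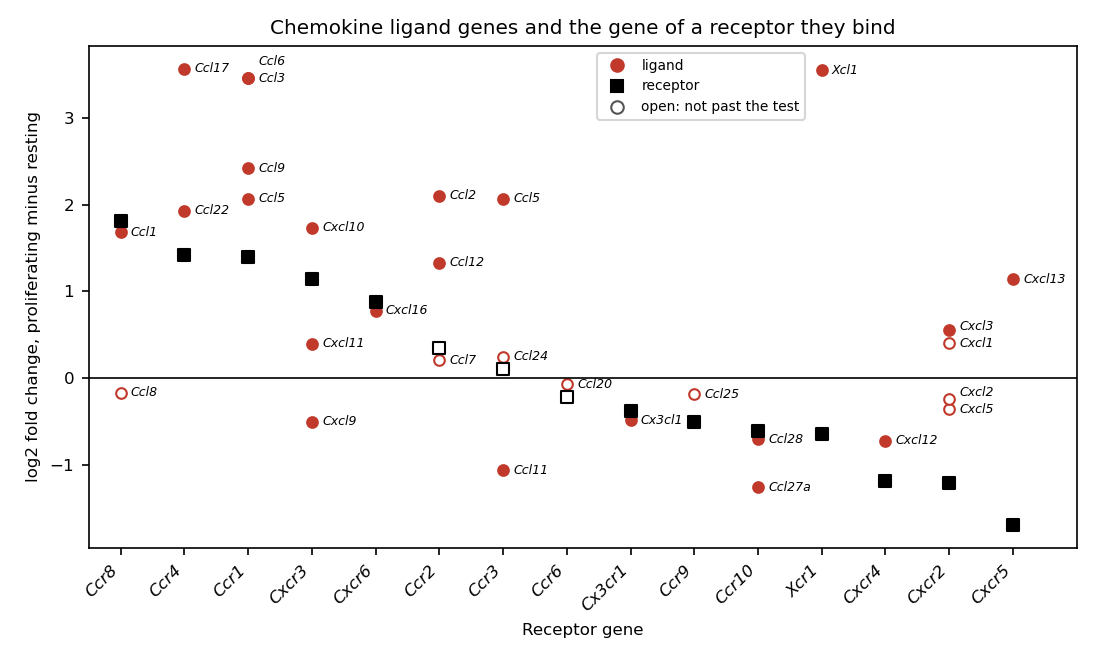
Log2 fold change in proliferating minus resting Tregs (vertical axis) of chemokine ligand genes (circles) set above or below the gene of a receptor they bind (squares, horizontal axis), open where the test was not passed. Ccr8, Ccr4 and Ccr1 were higher by 1.81, 1.42 and 1.39 together with most of their ligands, and Xcr1 and Cxcr5 were lower while Xcl1 and Cxcl13 were higher; with the Cd3 genes Ccr8, Ccr4 and Ccr1 were at -0.16, -0.54 and -0.58.

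Many chemokine genes lie side by side, and neighbours with no other protein-coding gene between them in the RefSeq order of GRCm38.p6 were compared. On chromosome 11, Ccl5, Ccl9, Ccl6, Ccl3 and Ccl4 formed a run of 5 in which all were higher, by 0.79 to 3.46. The other run on chromosome 11 was mixed: Ccl2, Ccl12 and Ccl1 were higher, Ccl11 was lower, and Ccl7 and Ccl8 did not pass the test. On chromosome 8, Cx3cl1, at a log2 fold change of -0.48, lay between Ccl22 and Ccl17, at 1.93 and 3.57. On chromosome 5, Pf4, at 4.11, lay between Ppbp, at -0.46, and Cxcl3, at 0.56, in a run of 7 whose other members lay between -0.51 and 0.40. Adjacent genes thus differed by up to 4.57 in log2 fold change, a difference that centring of the arrays leaves as it is.

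**Figure D5:**
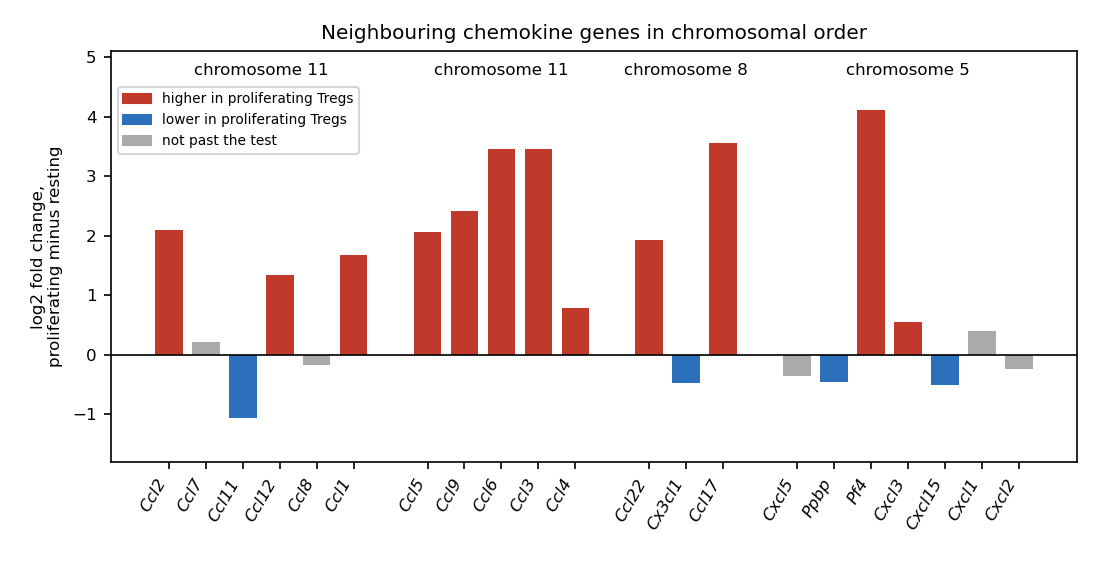
Log2 fold change in proliferating minus resting Tregs (vertical axis, bars from 0) of chemokine genes that neighbour each other, in chromosomal order (horizontal axis). All 5 genes of the run from Ccl5 to Ccl4 were higher, while Cx3cl1 was lower between Ccl22 and Ccl17, and Pf4 stood above its neighbours; with centring on the Cd3 genes Ccl4 and Ccl1 were at -1.18 and -0.29.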

How the data were processed

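Total RNA of 2 proliferating and 2 resting Treg samples was labelled for whole-transcript Affymetrix arrays, 1 array each. The deposited values are log2 values that the authors made with RMA, per the labels in Partek 6.6, and the log2 scale was read from that and from their range. RMA subtracts background, gives all arrays 1 distribution of probe signals and summarises each probe set, which limits absolute differences between arrays. The methods describe instead normalization with housekeeping controls, R and another array design, and which was applied is not settled. The medians of the proliferating arrays were 6.00 and 5.97, those of the resting arrays 6.27 and 6.27. The SD over all genes was 1.43 and 1.44 on the proliferating arrays and 1.13 and 1.13 on the resting arrays. The part of this difference in spread in the fold changes of dim genes was not tested. No source says whether samples came from separate cultures, so that p-values reflect the spread between these samples alone, possibly a technical one. With 2 arrays per group an exact permutation test cannot go below p = 0.333.

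Gene names came from the platform annotation, and the 34 members matched RefSeq (GRCm38.p6) by identifier. Probe sets with 1 gene name (23521 of 41345) were used, the one of highest mean over the 4 arrays standing for a gene, with no filter on dim genes. The groups were compared in R 4.3.3 by limma 3.58.1 (lmFit, eBayes), with a prior of 5.48 and 2 residual degrees of freedom, adjusted over 22180 genes. The fit was tested on simulated data. Members, lists and limits were chosen with earlier results of these data known, and lists are described by counts and medians only.

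All members are named, with values per array for those past the test at a log2 fold change of at least 1 in size and for the T-cell and the dendritic cell and myeloid lists, and full statistics for those at that size. The other members are given by range and counts. Receptors are named where past the test at that size or where they bind such a ligand, Pf4 and Ppbp by value, and markers by list. The dendritic cell and macrophage markers past the test are also named. Per-array values of Cxcl9, Cxcl12 and the Treg and dendritic cell markers shown were added after their values were seen, as were the named receptor Ccr10 and the neighbours. Alternatives were omission of dim genes, a trended robust prior, averaged probe sets, quantile normalization, centring on housekeeping genes, on the median or on Cd3d, Cd3e and Cd3g, a replicate block, each array left out, the methods' t-test unadjusted, adjusted and paired, a minimum fold change and all probe sets. Where both resting arrays of a gene lay below the limit of dim genes, a bound was set by the proliferating mean over that limit, added after seeing the data. A crossed replicate block was added after seeing the data. Upstream windows and motif shares came from RefSeq, and 33 probe sets naming several chemokine genes were not used.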

Additional observations from a re-analysis of the deposited data

How the results depend on the processing

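Scaling moved most results, and the cause was not tested. With housekeeping genes, 8 ligand genes were higher and 22 lower, against 16 and 10 in the deposited values, 1 receptor gene was higher and 19 lower, against 6 and 12, and the medians of the T-cell and the dendritic cell and myeloid chemokines were 0.45 and 0.21. Ccl12 (-0.0904), Ccl4 (-0.64), Cxcl11 (-1.03), Cxcl13 (-0.28), Cxcl16 (-0.64), Cxcl3 (-0.86), Ccr1 (-0.0280), Ccr7 (-0.50) and Cxcr3 (-0.28) changed sign. With the Cd3 genes, 5 ligand genes were higher and 24 lower, 0 receptor genes higher and 22 lower, and the medians were -0.0957 and -0.34. Ccl1 (-0.29), Ccl12 (-0.64), Ccl22 (-0.0378), Ccl4 (-1.18), Cxcl10 (-0.23), Cxcl11 (-1.57), Cxcl13 (-0.83), Cxcl16 (-1.19), Cxcl3 (-1.41), Ccr1 (-0.58), Ccr4 (-0.54), Ccr7 (-1.05), Ccr8 (-0.16) and Cxcr3 (-0.83) changed sign there. After centring on the median, 4 ligand and 4 receptor genes were lower, and the medians were 2.16 and 1.92. The T-cell median was 1.57 after quantile normalization, and the dendritic cell and myeloid median 2.02 without dim genes.

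Leaving out 1 array gave 13 to 16 ligand genes higher and 4 to 9 lower, 6 to 8 receptor genes higher and 5 to 10 lower, T-cell medians of 1.84 to 1.91 and dendritic cell and myeloid medians of 1.54 to 1.73. The lone array is then assumed to vary like the other group. Receptor genes lower numbered 5 without resting replicate 1 and 7 without resting replicate 2. At a log2 fold change of at least 1, 2 ligand and 4 receptor genes were lower. The methods' t-test at an unadjusted p called 6 receptor genes lower, and after adjustment 4 ligand genes lower, with 2 receptor genes higher and 2 lower. The methods' paired t-test, adjusted, called 0 ligand and 0 receptor genes in either direction (11 ligand genes higher and 3 lower, and 2 receptor genes higher and 5 lower, at an unadjusted p under 0.05), where 2 pairs leave 1 degree of freedom. With a replicate block, 17 ligand genes were higher and 9 lower, and 16 and 9 with the numbers crossed. Deviations of same-numbered arrays correlated at 0.0179, so that the numbers are not shown to pair the arrays. Precision is limited by having 4 arrays, and no probe detection values were used.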

Other observations

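Beside the receptors that bind a ligand described above, the lymph node homing receptor Ccr7 was higher in proliferating Tregs, at 10.21 and 10.17 against 9.21 and 9.33 in resting Tregs (log2 fold change 0.92, limma adjusted p = 8.19e-04), which missed the threshold after quantile normalization (adjusted p = 0.107) and changed sign with housekeeping genes and with the Cd3 genes. The atypical receptors, which take up chemokines without classical signaling, were lower or did not pass the test. Of 5, 4 were lower (Ackr1, Ackr2, Ackr3 and Ackr4), against 34.5% of all genes, and 0 were higher. Ccrl2 did not pass the test (0.38, adjusted p = 0.0543). Ackr1 and Ackr4 lay below the limit of dim genes, with means over the arrays of 4.71 and 5.16. Ackr2, a scavenger of inflammatory CC chemokines such as Ccl3 and Ccl5, read 6.36 and 6.01 in proliferating Tregs, against 7.58 and 7.59 in resting Tregs, a log2 fold change of -1.40 ± 0.15 (adjusted p = 2.60e-04).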
